A study of Mus musculus with 2 samples.

Results

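Barcodes that carried transcripts of megakaryocytes and platelets were selected from single-cell RNA sequencing of mouse bone marrow. Each droplet barcode stood for 1 droplet, and each unique molecular identifier (UMI) for 1 captured RNA molecule. Barcodes entered with at least 500 UMIs, at most 20% mitochondrial UMIs and under 40% hemoglobin UMIs, which left 12407 control and 8380 DKO barcodes, called eligible from here on. A barcode was a member when it held at least 5 UMIs from at least 2 of Pf4, Itga2b, Gp9 and Gp1bb, fewer than 10 UMIs of the basophil proteases Mcpt8 and Prss34, and under 5% of its UMIs from the neutrophil genes S100a8, S100a9, Camp, Ngp and Ltf. This gave 265 control members and 97 DKO members, 362 of 20787 eligible barcodes in all. Members were 2.14% of the eligible control barcodes (exact 95% binomial interval 1.89% to 2.41%) and 1.16% of the eligible DKO barcodes (0.940% to 1.41%). Intervals here and below cover counting error only.

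The control library came from 1 mouse labelled WT, described in the study as a littermate carrying Ddx41 fl/fl without VavCre and with wild-type cGas. The DKO library came from 1 VavCre:Ddx41 fl/fl, cGAS-/- mouse. Both mice were 2 months old. Vav-Cre removes the floxed gene across hematopoietic cells, and is also known to act in endothelial cells and oocytes, whereas cGas was absent from the whole DKO animal. No genotype had a second mouse, so variation among animals is unknown, and genotypes were compared without a test. The genotype also could not be told apart from the mouse, the library or its depth.

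Megakaryocytes are the large polyploid bone marrow cells that make platelets. They arise from Kit+ progenitors, replicate their DNA without dividing, build an internal membrane system, and extend proplatelets along tubulin bundles into the sinusoids. Platelets have no nucleus and carry RNA inherited from the megakaryocyte. Of the rule genes, Pf4 encodes the chemokine platelet factor 4 of the alpha granule. Itga2b encodes the alpha subunit of the fibrinogen receptor, and Gp9 and Gp1bb encode parts of the receptor complex for von Willebrand factor. In the GRCm38 annotation, Pf4 lies at chr5:90772435-90773383 on the plus strand, Gp9 at chr6:87778072-87779768 on the plus strand, Itga2b at chr11:102453297-102470122 on the minus strand, and Gp1bb at chr16:18620317-18622403 on the minus strand. Gp1bb overlaps exons of Sept5 and Gm49601 on the same strand, so reads from the shared bases do not identify Gp1bb alone. Itga2b likewise shares 251 bases with an exon of Gm23563 on the same strand.

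Many megakaryocyte genes are known targets of GATA1, the ETS factor FLI1 and NF-E2. For the 4 rule genes, the 250 bases before the RefSeq start were searched on both strands for the GATA words AGATAA and TGATAA, the ETS words AGGAAG and CGGAAG, and TGAGTCA, the core of the NF-E2 site. The windows of Pf4 (chr5:90772185-90772434, plus strand, 41.2% GC) and Gp9 (chr6:87777820-87778069, plus strand, 57.6% GC) are shown because they overlap no annotated exon. They were taken from RefSeq (GRCm38.p6) and are written 5' to 3'. The ETS word AGGAAG lies on the antisense strand, so the capitals show its reverse complement, CTTCCT.

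Pf4: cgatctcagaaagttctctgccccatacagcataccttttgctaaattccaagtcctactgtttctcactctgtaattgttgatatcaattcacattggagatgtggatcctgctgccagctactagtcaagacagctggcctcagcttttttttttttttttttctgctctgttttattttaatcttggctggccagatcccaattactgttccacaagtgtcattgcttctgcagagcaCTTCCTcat

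Gp9: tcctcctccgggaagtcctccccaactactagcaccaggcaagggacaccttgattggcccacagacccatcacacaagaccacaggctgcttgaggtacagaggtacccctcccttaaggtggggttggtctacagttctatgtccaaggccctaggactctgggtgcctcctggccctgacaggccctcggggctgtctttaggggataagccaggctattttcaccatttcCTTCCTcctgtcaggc

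An ETS word was present in all 4 windows, against 39.2% of 32851 promoters of the same length. In Pf4 it lay 4 bases before the start and in Gp9 11 bases before it, while Itga2b held AGGAAG 120 and 38 bases before its start and Gp1bb held CGGAAG 85 bases before its start. The letters of a GATA word were found in 0 of the 4 windows, against 16.6% of all promoters, and those of the NF-E2 core also in 0 of 4, against 4.46%. These matches describe the letters alone and are no evidence of binding.

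The control matrix held 135693452 UMIs over 1194299 barcodes with at least 1 UMI, and the DKO matrix held 117725934 UMIs over 14142 barcodes, none under 500 UMIs, with 32285 genes in each. Members contributed 1978069 control and 1350907 DKO UMIs. No barcode sequence occurred among the members of both libraries, and 32 did among all eligible barcodes. In the control, 12 members held 5 rule UMIs, the lowest number allowed, and 22 barcodes just outside held 4 UMIs from at least 2 rule genes. In the DKO library these were 8 and 12. A further 133 control and 44 DKO barcodes had at least 5 UMIs from 1 rule gene only.

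The label was checked with 14 platelet and megakaryocyte markers outside the rule, among them Ppbp, Tubb1, Treml1, Gp5, Gp6, Gp1ba, Itgb3, Vwf, Clec1b and P2ry12. At least 3 of them were detected in 242 of 265 control members (91.3%) and in 85 of 97 DKO members (87.6%). Among the other eligible barcodes this held for 7.36% in control and 6.45% in the DKO library, although those barcodes were deeper (median 3806 control and 4399 DKO UMIs) than the members (median 1982 and 1575). The median member held 7 markers in control and 6 in the DKO library, and the median other barcode held 1 in each. At full depth, the label therefore held for most members by this count, but 4 DKO members and 0 control members held none of the 14. These values describe the selection and were not tested, since the rule chose barcodes of this lineage.

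The members without another lineage were next set against the other eligible barcodes, gene by gene. At 4-fold, 6.45% of 7504 control genes and 6.17% of 7588 DKO genes stood above the other barcodes. Ppbp, which encodes the alpha granule chemokine precursor, stood first in each, at 7421 CPM (UMIs scaled to a common total for each sum of barcodes) against 42.0 in control and 8714 against 7.66 in the DKO library. Clec1b (the podoplanin receptor CLEC-2), Treml1 (an alpha granule receptor), Rab27b (a GTPase of dense granule secretion), Alox12 (platelet 12-lipoxygenase), Gp5 and Pde3a (a cAMP phosphodiesterase) were among the 12 leading genes of both. Vwf, which encodes von Willebrand factor, was among them in the control, and Myl9 (myosin light chain), Gng11 and Nrgn in the DKO library. The leading 12 of the control also held genes outside the megakaryocyte lists used here, among them Dlg2, which encodes a scaffold protein and stood second at 2030 against 11.0 CPM, and Plxna4, which encodes a semaphorin receptor, at 501 against 1.72 CPM.

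The members spanned a wide range of depth. They held from 501 to 89707 UMIs in control and from 564 to 149278 in the DKO library. Under 2000 UMIs, 135 of 3210 eligible control barcodes (4.21%) and 51 of 1451 DKO barcodes (3.51%) were members. Between 2000 and 10000 UMIs the shares were 0.978% (66 of 6747) and 0.259% (13 of 5016), and from 10000 UMIs they were 2.61% (64 of 2450) and 1.73% (33 of 1913). Members were thus most frequent among the shallowest barcodes, least frequent at intermediate depth, and more frequent again among the deepest, in both libraries. The DKO share was the lower one in all 3 ranges. The intervals of the genotypes overlapped under 2000 UMIs (3.54% to 4.96% and 2.63% to 4.60%) and from 10000 UMIs (2.02% to 3.32% and 1.19% to 2.41%), and did not at intermediate depth (0.757% to 1.24% and 0.138% to 0.443%).

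**Figure D1:**
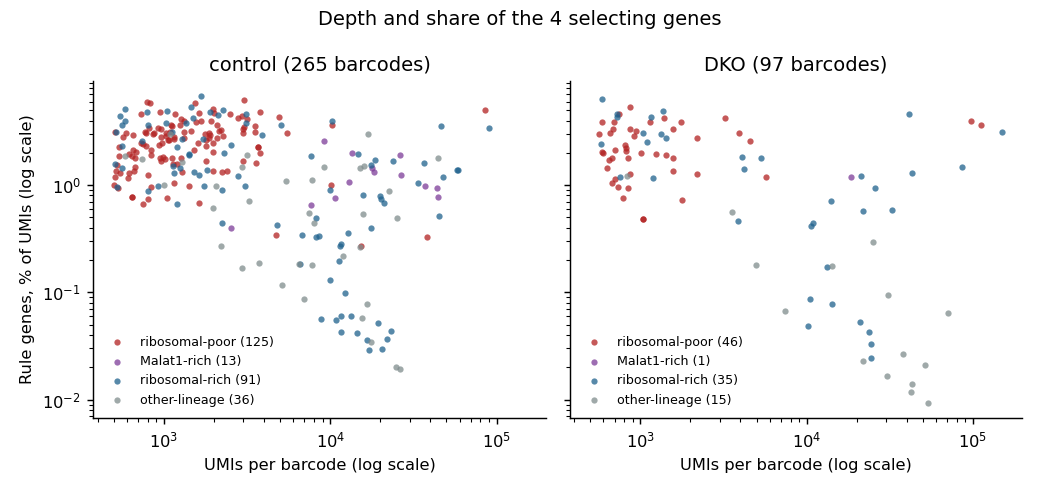
Total UMIs per barcode (x axis, log scale) against the percent of UMIs from the 4 rule genes (y axis, log scale) for the 265 control and 97 DKO members, 1 point per member, colored by the 4 groups defined in the text. Shallow members mostly held a high share of rule genes, whereas the deepest spread over the whole range, and the lower edge is set by the rule, since 5 rule UMIs are a larger share of a shallow barcode.

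Members were divided further by the share of ribosomal protein mRNA and of Malat1, a long noncoding RNA retained in the nucleus. The limits were set after these values had been seen, so the groups are ranges and not cell types. Members with at least 5 UMIs from at least 2 genes and 0.3% of UMIs from the markers of another lineage, or with at least 10% hemoglobin, were set apart first (other-lineage carriers, 36 control and 15 DKO members). Of the rest, those with at least 10% ribosomal protein UMIs were called ribosomal-rich (91 and 35 members), those with less and at least 1% Malat1 were called Malat1-rich (13 and 1), and the remainder ribosomal-poor (125 and 46). Ribosomal-poor members were 47.2% of the control (41.0% to 53.4%) and 47.4% of the DKO members (37.2% to 57.8%), and ribosomal-rich members 34.3% and 36.1%. Malat1-rich members were 4.91% (2.64% to 8.24%) and 1.03% (0.0261% to 5.61%). The ribosomal share lay between 8% and 12% in 31 control and 9 DKO members, near the limit.

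**Figure D2:**
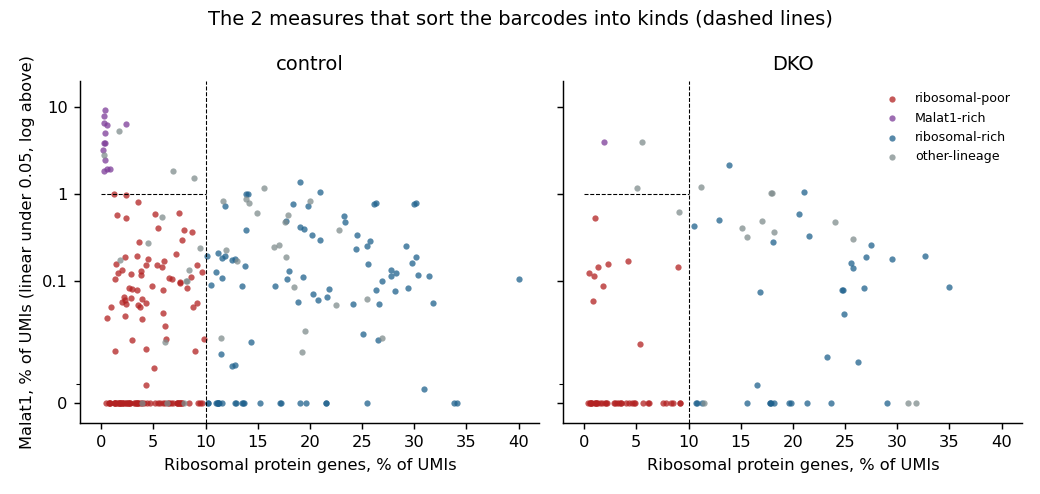
Percent of UMIs from 86 ribosomal protein genes (x axis) against percent from Malat1 (y axis) for each member of the control and DKO libraries, with dashed lines at the limits of 10% and 1%. The 13 control Malat1-rich members and the 1 in the DKO library lie above the Malat1 limit at the low end of the ribosomal axis, and the ribosomal axis has no gap at its limit.

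Ribosomal-poor members were mostly shallow and rich in platelet products. Their median depth was 1148 UMIs in control and 862 in the DKO library, and 94 of 125 and 38 of 46 held under 2000 UMIs. The median share of cytoskeleton and proplatelet genes was 11.4% in the control (lowest 0.815%, highest 22.2%) and 12.2% in the DKO library (2.44% to 24.9%). In ribosomal-rich members it was 4.01% (0.745% to 11.2%) and 2.77% (0.681% to 11.6%). The medians thus lay apart in both libraries, and the ranges overlapped. Tmsb4x, which encodes thymosin beta 4, the main actin monomer binding protein of platelets, accounted for much of this list, at 54838 CPM in control and 67473 CPM in DKO ribosomal-poor members against 14721 and 13749 CPM in ribosomal-rich ones. Myl9, the regulatory light chain of the myosin of platelet contraction, was at 2120 and 2390 CPM against 48.6 and 31.9 CPM. In ribosomal-poor members under 2000 UMIs, Tmsb4x was at 58022 and 59072 CPM and Myl9 at 1939 and 2794 CPM.

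The granule and receptor lists followed the same order. Alpha granule genes made up a median of 4.44% of UMIs in control and 4.09% in DKO ribosomal-poor members, against 0.534% and 0.521% in ribosomal-rich members. Ppbp was detected in 122 of 125 and 46 of 46 ribosomal-poor members and in 63 of 91 and 19 of 35 ribosomal-rich members. Because depth differed, each member was also thinned to 500 UMIs. Ppbp then remained detected in 96.8% and 97.8% of ribosomal-poor members and in 47.3% and 40% of ribosomal-rich members, so the order held at equal depth. Adhesion and agonist receptor genes made up 2.04% and 2.52% of UMIs in the median ribosomal-poor member, against 0.275% and 0.237%. Clec1b was at 2379 and 4046 CPM in the summed ribosomal-poor members and at 194 and 212 CPM in the ribosomal-rich. In ribosomal-poor members under 2000 UMIs it was at 2513 and 2543 CPM. Since the ribosomal share of a barcode sets how much room is left for other genes, these shares are not independent of the limit that made the groups.

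**Figure D3:**
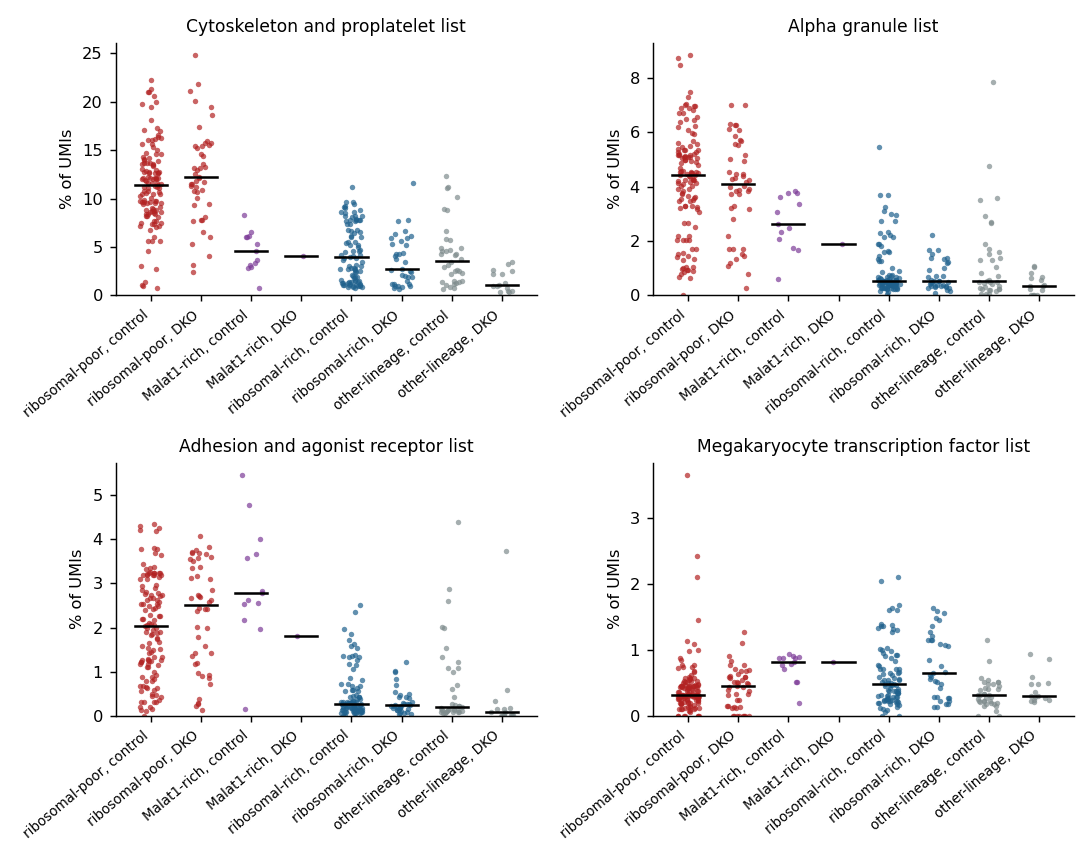
Percent of each member's UMIs from 4 gene lists (y axes), by group and library (x axis), with 1 point per member and a line at the median. Ribosomal-poor members had the highest median share of alpha granule genes, 4.44% in control and 4.09% in the DKO library.

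A few ribosomal-poor members were very deep and dominated the sums. The deepest control member of this group held 85820 UMIs, and the 2 deepest in the DKO library held 111724 and 97630 of 266936 UMIs. The summed values of the DKO group therefore describe mainly these 2 barcodes. Thbs1, which encodes the alpha granule protein thrombospondin 1, shows this: of 2870 DKO UMIs over all members, 1326 and 1243 lay in 2 barcodes, while the highest control barcode held 321 of 2462. Genotypes were for that reason compared only over ribosomal-poor members under 2000 UMIs, below.

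Markers of nuclei and of division were found in fewer ribosomal-poor than ribosomal-rich members. Malat1 was detected in 52% of them in control and 21.7% in the DKO library, and after thinning in 32.8% and 10.9%, against 46.2% and 25.7% of thinned ribosomal-rich members. Malat1 was one of the values that made the groups, so these shares are a description. Kit, the stem cell factor receptor of progenitors, was detected in 3 of 125 and 0 of 46, and Gata2, a progenitor transcription factor, in 6 and 5. Mki67, a marker of cycling cells, was found in 17 and 1. Slamf1, another progenitor gene, was found in 31 and 14, at 181 and 442 CPM, against 28.3 and 25.5 CPM in ribosomal-rich members. The progenitor list made up 0.0490% of summed control and 0.0757% of summed DKO ribosomal-poor UMIs. In ribosomal-rich members it made up 0.0741% and 0.0733%. The DKO ribosomal-poor sums rest mainly on the deep barcodes named above. After thinning to 500 UMIs, a gene of G2 and mitosis was detected in 24% and 10.9% of ribosomal-poor and in 48.4% and 40% of ribosomal-rich members. At this depth a low count does not show that the transcripts were absent.

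Malat1-rich members were deep and, at full depth, held more platelet markers than the other groups. The 13 control members held between 2532 and 44577 UMIs (median 17900), and the DKO member held 18529. All 14 outside markers were present in the median control member, with a lowest value of 4, and 13 were present in the DKO member. The medians of the control ribosomal-poor and ribosomal-rich members were 8 and 5, and after thinning to 500 UMIs the 3 medians were 6, 5 and 2. In the DKO library this order did not hold at equal depth, where the thinned Malat1-rich member held 5 markers and the median thinned ribosomal-poor member 6. Tubb1, the tubulin isoform of platelets and proplatelets, was detected in 12 of 13 control members (median 19 UMIs, highest 107). Vwf was detected in 12 of 13 (median 32 UMIs, highest 125) and Ppbp in all 13 (8 to 378 UMIs, median 53). The DKO member held 8 Tubb1, 38 Vwf and 18 Ppbp UMIs, within the range of the control members for each.

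The high Malat1 share of these members was fixed by the limits of the group. Ribosomal protein genes made up 0.177% to 2.37% of their UMIs in control and 0.375% of the sum, against 3.81% in summed control ribosomal-poor members. In the DKO library the share was 1.89% in the Malat1-rich member and 1.39% in the ribosomal-poor sum, which deep barcodes dominated. The 38 DKO ribosomal-poor members under 2000 UMIs stood at 3.845%, above the Malat1-rich member. Neat1, a nuclear RNA that the limits did not use, was detected in all 13 control members and stood at 3410 CPM, against 143 CPM in ribosomal-poor and 78.9 CPM in ribosomal-rich control members. Receptors made up 3.25% of the summed control UMIs, with Itgb3, the beta subunit of the fibrinogen receptor, at 4567 CPM. The mix of the rule genes differed as well: Itga2b gave 55.0% of the rule UMIs in control and 90.5% in the DKO member, while in control ribosomal-poor and ribosomal-rich members it gave 7.38% and 4.68%. In the control, Kit was detected in 0 of 13 and Mki67 in 1 of 13, and genes of G2 and mitosis made up a median of 0.00536% of UMIs. Of the other progenitor genes, Gata2 was detected in 7 of 13 and Slamf1 in 12 of 13. The progenitor list made up 0.144% of their summed UMIs, against 0.0490% in ribosomal-poor and 0.0741% in ribosomal-rich control members.

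Ribosomal-rich members held about as many UMIs as all the others together, 988629 of 1978069 UMIs in control and 627238 of 1350907 among DKO members. Their median depth was 3899 UMIs in control and 10473 in the DKO library. The transcription factor list made up 0.896% of their summed control UMIs and 1.06% in the DKO library. Kit was detected in 29 of 91 control and 16 of 35 DKO barcodes, Gata2 in 35 and 17, and Slamf1 in 15 and 6. Tubb1 was detected in 3 of 91 and 3 of 35 of these members.

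Among the 35 control and 19 DKO ribosomal-rich members with at least 10000 UMIs, the share of rule genes varied widely. A limit of 0.5%, set after the values had been seen, left 17 control and 9 DKO members above it, and 4 members of each library lay between 0.3% and 0.7%. Above it, the median member held 8 outside markers in both libraries (5 to 14 in control, 6 to 14 in the DKO library), and Vwf was detected in 17 of 17 and 9 of 9. Below it, the median was 3.5 markers in control (1 to 6) and 4 in the DKO library (1 to 5), and Vwf was detected in 3 of 18 and 3 of 10. Rule UMIs had a median of 350 in control and 259 in the DKO library above the limit. Below it these medians were 9 (5 to 71) and 10.5 (5 to 49). The marker counts of both sides thus overlapped in the control. Depth moved with the limit, with medians of 23937 control and 32784 DKO UMIs above it and 13097 and 13767 below it, and its part in the marker counts was not tested. Kit was detected in 9 of 17 and 7 of 9 above the limit and in 17 of 18 and 9 of 10 below it, and Gata2 in 12 and 7 above and 17 and 10 below.

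Carriers of another lineage were the remaining 13.6% of control and 15.5% of DKO members. In the control, 14 carried erythroid markers, 10 those of monocytes, macrophages or dendritic cells, 4 those of B cells, 3 those of stromal or endothelial cells, and 5 held 2 lineages. In the DKO library, 5 carried erythroid, 2 erythroid with stromal, 2 monocytic, 2 neutrophil, and 4 other markers or mixtures. Of the eligible barcodes with markers of T or NK cells, 0 of 487 control and 0 of 212 DKO barcodes were members, which allows shares of up to 0.616% and 1.42% at a limit of 3 barcodes, and 0.755% and 1.73% by the exact 95% interval. Of those with plasma cell markers, 0 of 51 and 0 of 54 were members, which allows up to 5.88% and 5.56% at the same limit of 3 barcodes. A droplet holding a megakaryocyte or platelets together with another cell, and a cell of another lineage with platelet RNA bound to it, cannot be told apart in these counts.

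The content of free RNA could be measured in the control, whose matrix kept empty droplets. In 1125245 control barcodes of at most 100 UMIs, the rule genes together stood at 1076 CPM and Pf4 at 858 CPM. If a member consisted of such RNA alone, it would hold a median of 2.13 rule UMIs at its own depth and at most 96.5. Of the control members, 19 held no more than this, and 47 held under 5 times as much, of which 27 were ribosomal-rich, 16 other-lineage and 3 ribosomal-poor. Below the 0.5% limit, the 18 deep ribosomal-rich control members held a median of 9 rule UMIs at a median depth of 13097 UMIs. How many of them were among the 19 was not counted, and free RNA as a source of their rule UMIs was not tested. A Pf4 UMI was found in 11.5% of control barcodes with B cell markers (median 2682 UMIs) and 13.8% of those with T or NK markers (median 4108), and in 3.71% and 3.30% in the DKO library (median 3784 and 5556 UMIs). The share with stray Pf4 was thus higher in the control, in barcodes that were the shallower ones. The DKO matrix held no barcodes under 500 UMIs for the same estimate.

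The targeted genes were measured next. Ddx41, an RNA helicase (chr13:55530410-55536658, minus strand), had 54 UMIs in control and 14 in the DKO members, or 27.3 CPM (20.5 to 35.6) and 10.4 CPM (5.67 to 17.4). The log2 ratio was -1.32 (-2.36 to -0.53), and in the other eligible barcodes it was -1.12. Of the 14 DKO UMIs, 7 were in other-lineage carriers and 7 in ribosomal-rich members. Ribosomal-poor members under 2000 UMIs held 0 Ddx41 UMIs in both libraries, and no difference was detectable there. Cgas, the cytosolic DNA sensor (chr9:78430526-78443237, minus strand), had 43 and 17 UMIs, with a log2 ratio of -0.74 whose interval reached 0.05. The exons removed in either allele are not given in the sources used here, and 3' tags outside a deleted part do not check the deletion.

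Most genes of the megakaryocyte lists differed little between the genotypes when all members were summed, but these sums rested on a few deep barcodes. Of 7089 genes with at least 20 CPM in a library, 225 (3.17%) were at least 2-fold higher in DKO members and 154 (2.17%) at least 2-fold lower, with a median log2 ratio of 0.03. None of the 25 receptor genes measured passed 2-fold in either direction (median -0.13), and none of the 29 cytoskeleton genes (median 0.04), among them the platelet tubulin gene Tubb1, with 514 and 206 UMIs (-0.76). Of 23 alpha granule genes, the growth factor genes Gas6 (95 and 149 UMIs) and Vegfc (19 and 44) were at least 2-fold higher and the chemokine gene Ccl5 (67 and 2) was lower (median -0.02 over the list). Nearly all DKO UMIs of Gas6 and Vegfc lay in other-lineage carriers, since ribosomal-poor, Malat1-rich and ribosomal-rich DKO members held 0, 3 and 1 Gas6 UMIs and 0 Vegfc UMIs. Of the control Ccl5 UMIs, 62 lay in 4 ribosomal-rich barcodes. Of 30 signalling genes, Mctp1 was lower (1255 and 425 UMIs, median -0.06 over the list), with 898 control UMIs in Malat1-rich members. Of 25 transcription factors, the erythroid factor Klf1 was higher (35 and 53 UMIs, median 0.00 over the list), with 6 of the DKO UMIs in ribosomal-rich members, 0 in the ribosomal-poor and Malat1-rich ones, and the rest in carriers. The rule genes Pf4 and Itga2b stood at 12328 and 1963 CPM in control and 12086 and 1865 CPM in the DKO members, with log2 ratios of -0.03 and -0.07. Without the 5 deepest members of each library, the list medians fell to -1.25 for receptors, -0.85 for alpha granule, -0.78 for cytoskeleton and -0.98 for signalling genes, and for dense granule genes from -0.18 to -0.51, while the transcription factor median was -0.06. With each barcode given equal weight, the medians were -0.11 for receptors, -0.02 for alpha granule and -0.02 for cytoskeleton genes. These sums mixed the groups above in unequal parts, since other-lineage carriers held 19.0% of the control and 32.4% of the DKO member UMIs. Without those carriers, 1.46% of 6779 genes were at least 2-fold higher and 3.79% lower, so that the higher genes were 27.8% of those past 2-fold instead of 59.4%.

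The largest increases over all members came from carriers of another lineage. Elane, the neutrophil elastase gene, had 40 control and 841 DKO UMIs (log2 ratio 4.91, 4.49 to 5.44), of which 836 DKO UMIs lay in other-lineage carriers and 528 and 296 in 2 barcodes. Mpo (myeloperoxidase, 35 and 601 UMIs), Ctsg (cathepsin G, 40 and 359) and Prtn3 (proteinase 3, 107 and 415) lay in carriers likewise. In the other eligible barcodes Elane was lower in the DKO library (log2 ratio -0.79), opposite in sign to the members. Mgp, a matrix protein gene with 386 control and 30 DKO UMIs, had 286 of its control UMIs in 1 barcode. The gene models Gm28905 and Gm26532, with 214 and 235 control UMIs and 28 and 47 DKO UMIs, had 199 and 214 of the control UMIs in Malat1-rich members, of which the DKO library held 1.

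Decreases that were also present outside the members followed. Hist1h2ap, a histone gene, had 1880 control and 187 DKO UMIs (log2 ratio -2.77, -3.00 to -2.56), in 74 of 265 and 17 of 97 members, against -2.24 in the other eligible barcodes. Isg15, an interferon-induced ubiquitin-like modifier, had 110 and 19 UMIs, or 55.6 and 14.1 CPM (-1.92, -2.77 to -1.27), against -1.68 in the other eligible barcodes. Serpina3g, a serine protease inhibitor, had 275 and 36 UMIs (-2.35), of which 224 and 25 were in ribosomal-rich members, and stood at -0.95 in the other eligible barcodes. Whether the difference was larger in the members was not tested.

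Interferon-stimulated genes were mostly lower in the DKO members. Of 17 measured over all members, 0 were at least 2-fold higher and 4 at least 2-fold lower, 9 had an interval wholly below 0, and the median log2 ratio was -0.74. The 4 were Isg15, Ifitm1 (104 and 32 UMIs), Ifi27l2a (127 and 23) and Ifit1 (78 and 9, with 52 of the control UMIs in 4 Malat1-rich barcodes). Over all 7089 genes measured, 3.17% were at least 2-fold higher and 2.17% lower. Intervals that excluded 0 were common in other lists too, with 36 of 83 ribosomal protein genes above 0 and 18 below. Ifitm3, an antiviral membrane protein, had 1257 control and 485 DKO UMIs (log2 ratio -0.82, -0.98 to -0.67), and Ifitm2 had 1125 and 568 UMIs (-0.43, -0.58 to -0.29). As a share of UMIs, the summed list gave a log2 ratio of -0.94 (-1.52 to -0.45) in ribosomal-poor members under 2000 UMIs, -0.55 (-0.66 to -0.44) in ribosomal-rich members and -0.92 in the other eligible barcodes. The list was therefore lower in the DKO library within each of these sets, outside the members too. The 10 measured p53 targets had a median log2 ratio of 0.06, with 0 genes at least 2-fold higher and 1 lower. The lower one, Bbc3, which encodes the apoptosis activator PUMA, had 139 control and 32 DKO UMIs, of which 111 control UMIs lay in 6 Malat1-rich barcodes. The summed list was at -0.03 (-0.13 to 0.08).

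**Figure D4:**
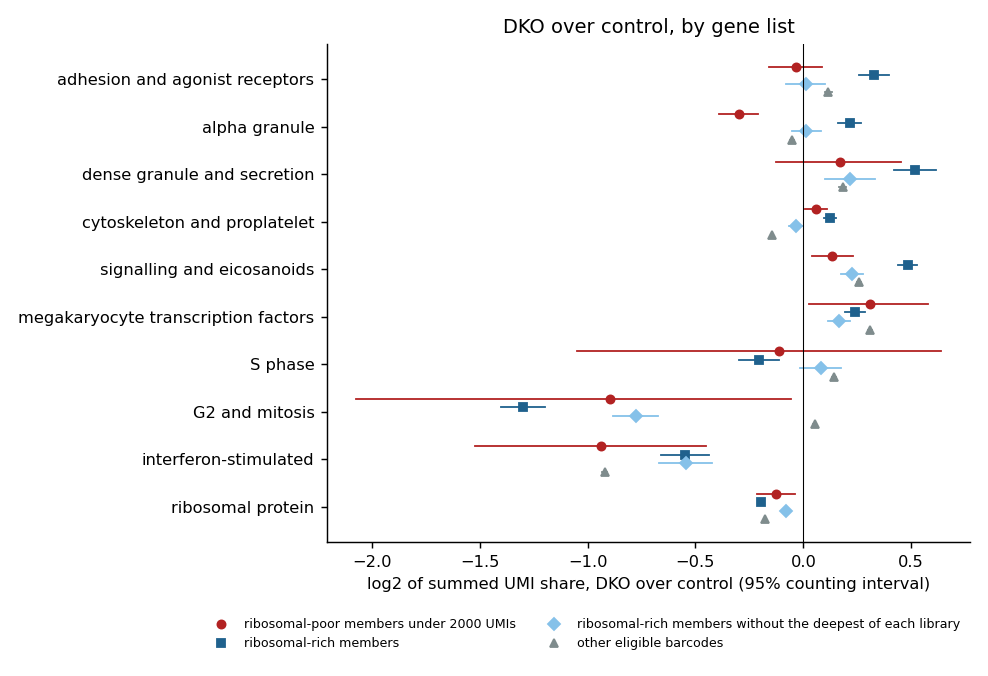
Log2 ratio of the summed UMI share of each gene list, DKO over control (x axis), with 95% counting intervals, for ribosomal-poor members under 2000 UMIs, ribosomal-rich members, ribosomal-rich members without the deepest of each library, and the other eligible barcodes. Interferon-stimulated genes lie left of 0 in all 4 sets, whereas G2 and mitosis genes lie left of 0 in the sets of members and at 0.05 in the other eligible barcodes. In the ribosomal-poor set the G2 and mitosis value rests on 62 control and 11 DKO UMIs (-0.89, -2.07 to -0.06). Without the deepest barcode of each library, its interval reached 0.01.

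Shallow ribosomal-poor members offered the most uniform comparison, with 94 control and 38 DKO barcodes under 2000 UMIs and 101065 and 35787 UMIs in sum. Of 338 genes with at least 500 CPM in a library, 12 (3.55%) were at least 2-fold higher and 9 (2.66%) lower in the DKO library. None of 14 receptor, 11 alpha granule, 21 cytoskeleton and 15 signalling genes passed 2-fold. Cytoskeleton genes made up 11.7% of control and 12.2% of DKO UMIs (log2 ratio 0.06), and receptors 2.10% and 2.04% (-0.04). Alpha granule genes made up 4.39% and 3.57% (-0.30, -0.39 to -0.21). This last difference rested mainly on Ppbp, at 2753 and 689 UMIs (-0.50, -0.62 to -0.38), and on Ctla2a, a cysteine protease inhibitor, at 614 and 180 (-0.27). Thbs1, which was higher over all members, was here at 191 and 83 UMIs (0.31, -0.09 to 0.67).

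Some single genes of these shallow members stood apart. Itga2b had 140 control UMIs in 66 of 94 barcodes and 114 DKO UMIs in 33 of 38 barcodes (log2 ratio 1.20, 0.83 to 1.57), while Pf4 had 2374 and 644 UMIs (-0.38, -0.51 to -0.26). As both genes chose the members, their ratio is a description. Gng11, a G protein gamma subunit, had 392 and 181 UMIs (0.39, 0.12 to 0.64), and Plek, the protein kinase C substrate pleckstrin, 398 and 181 (0.37, 0.10 to 0.62). Fli1 had 63 and 35 UMIs (0.67, 0.01 to 1.27). Malat1, limited by the group's own definition, had 88 control UMIs in 42 barcodes and 7 DKO UMIs in 6 barcodes (-1.98, -3.51 to -1.05). Isg15 had 9 control UMIs (89.1 CPM) and 0 DKO UMIs, which allows up to 103 CPM, so no difference was detectable at this depth. Among the other 8 genes that were at least 2-fold lower at 500 CPM were Ifitm3, with 82 and 11 UMIs (-1.29, -2.46 to -0.49), and S100a9, a neutrophil gene limited by the rule, with 119 and 16 UMIs (-1.32, -2.25 to -0.64). At a minimum of 100 CPM, the 8 largest decreases were genes with 0 DKO UMIs and at most 20 control UMIs, and are not described further.

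In ribosomal-rich members, genes of the platelet lists were slightly higher in the DKO library in the sums, but 1 barcode carried much of this. Of 2080 genes with at least 100 CPM, 67 (3.22%) were at least 2-fold higher and 43 (2.07%) lower, with a median log2 ratio of 0.08. The median was 0.52 over 12 receptor genes, 0.49 over 13 alpha granule genes, 0.47 over 23 cytoskeleton genes and 0.50 over 27 signalling genes, and 0 genes of these lists were 2-fold lower. Itgb3 had 258 and 438 UMIs (1.42), of which 64.6% of the DKO UMIs lay in 1 barcode. Without the deepest barcode of each library, the summed receptor list moved from 0.33 to 0.01, the alpha granule list from 0.21 to 0.01, the cytoskeleton list from 0.12 to -0.04 and the signalling list from 0.48 to 0.23. Without the 5 deepest, these stood at -0.74, -0.27, -0.43 and 0.01. The transcription factor list stayed above 0, at 0.24, 0.17 and 0.41, and stood at 0.31 in the other eligible barcodes.

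Genes of G2 and mitosis were lower in the sum of the DKO ribosomal-rich members. Of 14 genes measured, 11 were at least 2-fold lower, 0 higher, and the interval of all 14 lay below 0, with a median log2 ratio of -1.51. Over all 2080 genes measured in this group, 2.07% were at least 2-fold lower. Intervals that excluded 0 were common here, since 54 of 81 ribosomal protein genes lay below 0 and 10 above. Ube2c, a ubiquitin-conjugating enzyme of the anaphase-promoting complex, had 391 control UMIs in 35 of 91 barcodes and 55 DKO UMIs in 8 of 35 (-2.15, -2.61 to -1.76). Cenpa, the centromeric histone, had 185 and 22 UMIs (-2.36), and Cdc20, an activator of the anaphase-promoting complex, 106 and 16. Mki67 had 389 and 108 UMIs (-1.18), Birc5, which encodes survivin, 254 and 60 (-1.41), and Top2a, a DNA topoisomerase of dividing cells, 485 and 182 (-0.75). Hist1h2ap, which is replication-dependent, had 1384 and 102 (-3.09), but also stood at -2.24 in the other eligible barcodes.

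The summed share of G2 and mitosis genes was 0.389% of UMIs in control and 0.158% in DKO members (log2 ratio -1.30, -1.40 to -1.20). Without the deepest barcode of each library the ratio was -0.78, and without the 5 deepest -1.16. In the other eligible barcodes it was 0.05. The S phase list, by contrast, differed little: of 11 genes 0 passed 2-fold (median -0.21), and the summed list moved from -0.21 to 0.08 and 0.02 without the deepest and the 5 deepest barcodes. Over all members, where other-lineage carriers are included, the median was -0.47 for 25 genes of G2 and mitosis and 0.47 for 24 S phase genes. Without the carriers these medians were -1.14 and -0.17, and without the 5 deepest members of each library 0.11 and 0.91, so the direction over all members depended on which barcodes were summed.

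The difference was also seen in the values of single barcodes, but among the deep ones only. In ribosomal-rich members of at least 10000 UMIs, the share of G2 and mitosis genes ran from 0% over a median of 0.311% to 1.36% in 35 control members, and from 0% over 0.00977% to 0.766% in 19 DKO members. It was at least 0.1% in 23 control and 6 DKO members, and under 0.03% in 5 and 12, so the libraries overlapped over the whole DKO range. Mki67 was detected in 27 of 35 and 8 of 19. The S phase share had medians of 0.277% and 0.237%, and Kit was detected in 26 of 35 and 16 of 19. The median of the G2 and mitosis share was lower in the DKO library both above the rule gene limit of 0.5% (0.246% in 17 and 0.00936% in 9 members) and below it (0.365% in 18 and 0.0110% in 10). At lower depth the medians were in the opposite order, at 0.0952% in 35 control and 0.109% in 12 DKO members under 2000 UMIs, and 0.0340% in 21 and 0.180% in 4 members between 2000 and 10000 UMIs. These barcodes came from 1 mouse of each genotype and were not counted as replicates. The median depth of the members of at least 10000 UMIs was 17686 UMIs in control and 21714 in the DKO library. The part of depth in the G2 and mitosis shares was not tested. Members below the rule gene limit held a median of 9 control and 10.5 DKO rule UMIs, and the part of free RNA in these was not tested either.

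**Figure D5:**
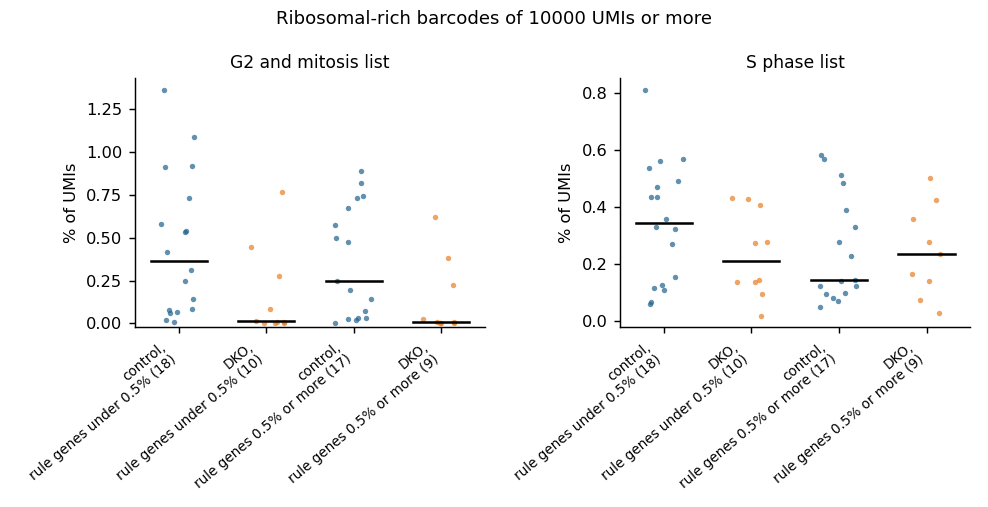
Percent of UMIs from the G2 and mitosis list and from the S phase list (y axes) in ribosomal-rich members of at least 10000 UMIs, split by library and by a rule gene share of 0.5% (x axis), with 1 point per member and a line at the median. On both sides of that limit most DKO members lie near 0 for G2 and mitosis, with medians of 0.00936% and 0.0110%, while the S phase points of the libraries overlap.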

How the data were processed

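Total bone marrow cells of 1 control and 1 DKO mouse were profiled with 10x Chromium 3' libraries. Reads had been processed by the authors with Cell Ranger 7.1.0 against mm10, per the labels, and they deposited raw UMI counts per gene and barcode, with all barcodes for the control and only barcodes of at least 500 UMIs for the DKO library. These counts were used as deposited.

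Eligible barcodes and members were selected as given in the report. The members and gene lists were chosen with earlier results of these data known. The groups by ribosomal and Malat1 share, and the limit of 0.5% for deep members, were chosen after the values had been seen. No doublet caller was run, and carriers of another lineage were set apart by 8 marker lists instead.

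For each library the counts of members were added up and expressed as CPM. Genotypes were set against each other as log2 (DKO/control) after adding 1 count to both, and the 95% interval came from the exact conditional binomial distribution. Poisson intervals were used for levels and Clopper-Pearson intervals for shares. All genes past a minimum of 20 CPM (500 CPM in shallow ribosomal-poor and 100 CPM in ribosomal-rich members) were compared. Named genes were, per list, the 4 with most UMIs and the 2 with the largest ratio, the 8 largest changes among genes of at least 100 CPM, the 12 leading genes over other barcodes, the rule genes and the targets, each given where it bore on a result. Other genes named, such as Kit, Neat1, Ccl5 and Bbc3, are from the same lists and were picked with their values in view. Some genes are not reported here, while counts and list summaries over all genes include them. Promoters were taken from RefSeq.

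On simulated counts with 200 changed genes among 7089, 98.5% of the changed genes were called over all members. Of the intervals, 95.6% held the true value. Whether intervals do so where most UMIs of a gene lie in a few barcodes, as for Thbs1 in DKO members, was not tested. In all, 19 alternatives were listed at the outset and 8 came later, with the data in view. Python 3.11.15, numpy 2.4.6, scipy 1.17.1, pandas 2.3.3 and matplotlib 3.10.9 were used.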

Additional observations from a re-analysis of the deposited data

Results flagged for a closer look

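In the control library, 100 barcodes under 500 UMIs also passed the requirement on rule genes, in data that none of the comparisons used. They held 129 to 498 UMIs (median 331), a median of 7 rule UMIs or 2.54% of their UMIs, and a median of 3 of the 14 outside markers. Ppbp stood at 16867 CPM in their sum, and Malat1 was not detected in 71 of them. Their share of all control barcodes rose with depth, from 0.0310% at 100 to 199 UMIs to 2.37% at 400 to 499 UMIs, and was 4.01% at 500 to 599 UMIs. No barcode under 50 UMIs or from 50 to 99 UMIs passed. The DKO matrix has no barcodes in this range, so the number could not be set against the other genotype.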

How the results depend on the processing

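No paired analysis was possible because each genotype had 1 library. The share of eligible barcodes that were members stayed lower in the DKO library under every rule tried. It was 1.82% in control and 0.856% in DKO barcodes from 1000 UMIs, 1.41% (130 members) and 0.664% (46) from 2000 UMIs, 1.81% and 0.919% with at least 10 rule UMIs, and 1.30% (161 members) and 0.740% (62) with at least 3 rule genes. Each of these settings still chose members by the rule genes. In the other eligible barcodes the rule genes together were also lower in the DKO library, at 68.95 CPM in control and 25.62 CPM. Whether this bore on the shares was not tested. With another lineage called from 1% of UMIs, 5.28% of control members were carriers instead of 13.6%, and 9.28% of DKO members instead of 15.5%.

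The counts of genes at least 2-fold higher and lower, 225 and 154 over all members, were unstable. They were 99 and 257 without carriers of another lineage, 570 and 458 without the 5 deepest members of each library, 2146 and 1359 without a filter on low counts, 29 and 30 among genes of at least 100 CPM, 12 and 9 in shallow ribosomal-poor members, and 67 and 43 in ribosomal-rich members, and 331 and 289 with equal weight for each barcode. These settings also changed how many genes were measured. Of 126 list medians recomputed over the settings, 89 moved by at most 0.25 and 41 fell on the other side of 0. For G2 and mitosis over all members the median of -0.47 moved to -1.14 without carriers of another lineage and to 0.11 without the 5 deepest members, and the cause was not tested. Depth limited the shallow members, where most genes of the transcription factor, S phase and p53 lists had too few UMIs to be compared.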
